A study of Mus musculus with 12 samples.

Results

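Endothelial genes were examined in sorted mouse mammary cells. The set holds 35 genes known from the cells that line blood and lymph vessels, taken from a written list and matched by gene symbol. The list was chosen with earlier results of these data known. All 35 were measured, each by 1 probeset, among 19938 genes with a single symbol on the array. RNA was hybridised to 12 arrays, 3 in each of 4 groups. Wnt4-deleted mice (MMTV::Cre+.Wnt4fl/fl.mT/mG) gave CD24 low arrays 3, 11 and 15 and CD24 high arrays 4, 12 and 16. WT mice (MMTV::Cre+.Wnt4wt/wt.mT/mG) gave CD24 low arrays 1, 9 and 13 and CD24 high arrays 2, 10 and 14. Arrays carry the number that ends their title. All mice, controls included, were females aged 10 to 14 weeks with a Cre recombinase under the MMTV promoter, which is active in mammary epithelium, and the mT/mG reporter, in which cells that met Cre turn from red to green fluorescence. After depletion of lineage-positive cells, GFP+ cells were sorted by CD24, and the labels call the CD24 low cells myoepithelial and the CD24 high cells luminal. The antibodies used for the depletion are not given in the sources used here. The labels speak of mammary glands in one place and of mammary grafts in another, and do not say how many animals gave 1 array.

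Endothelial cells form the inner wall of vessels and are held together by VE-cadherin (Cdh5), PECAM-1, claudin-5 and related adhesion proteins. Their growth and quiescence are steered by VEGF through its receptor tyrosine kinases and by angiopoietins through Tie2 (Tek), and their identity by transcription factors of the ETS family such as Erg. In the mammary gland, capillaries run in the fat pad around the ducts, outside the basement membrane, and neither epithelial layer is built of endothelial cells. Lymphatic endothelium is set apart by Prox1, Flt4 and Lyve1.

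The values are log2 RMA levels, so that a difference of 1 is a doubling, and levels are compared between arrays for 1 gene, never between genes. Array medians lay between 5.64 and 5.82, and no array was identical to another. Under the test given below, myoepithelial markers were called higher in CD24 low cells (20 of 20 in both genotypes) and luminal markers lower (17 of 18 in both), as the sort labels have it. Wnt4 was 6.11 to 6.78 on Wnt4-deleted CD24 high arrays, against 7.42 to 7.92 on WT CD24 high arrays, and 6.20 to 6.66 on Wnt4-deleted CD24 low arrays, against 6.45 to 6.63 on WT CD24 low arrays. Title numbers fall into the sets 1 to 4, 9 to 12 and 13 to 16, each with 1 array of every group. The design text names 3 independent experiments, but nothing ties an array to one of them, so p-values measure the spread among these arrays, which may be technical. CD24 low arrays 1 and 3 stood apart from the other 4 CD24 low arrays for most members, and counts and medians over the members are therefore also given by set. In RNA from a cell population, fewer cells of a type and less RNA per cell cannot be told apart.

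Endothelial genes were higher in CD24 low than in CD24 high cells. In Wnt4-deleted cells 19 of the 35 passed the test (limma, two-sided, Benjamini-Hochberg adjusted p under 0.05 over all 19938 genes), all of them higher in CD24 low cells, or 54.3% against a background of 8.22% of all genes called higher and 16.4% called in either direction. In WT cells 11 of 35 passed, again all higher in CD24 low, or 31.4% against a background of 8.21% higher and 16.1% in either direction. The 11 WT genes were also among the 19 in Wnt4-deleted cells, and 6.5% of all genes were higher in both. Because the list was chosen with earlier results known, these shares describe the members and do not test an excess over the background. Not 1 member was called lower, against 8.23% and 7.93% of all genes in Wnt4-deleted and WT cells. At an unadjusted p of 0.05, 30 members passed in Wnt4-deleted cells (27.9% of all genes) and 22 in WT cells (26.4%). All 35 differences were positive in both genotypes, with a median of 1.94 (3.85-fold, range 0.01 to 3.93) in Wnt4-deleted cells and 1.60 (3.03-fold, range 0.24 to 3.36) in WT cells, while the median over all genes was -0.01 and -0.02; Apln and Prox1 turned negative in Wnt4-deleted cells when each array was centred on its median. The CD24 low and CD24 high arrays did not overlap for 20 members in Wnt4-deleted cells (background 14.2%), for 27 in WT cells (15.7%) and for 17 over all 12 arrays (8.33%). In these 3 counts 0 members lay wholly lower in CD24 low cells, against 15.1%, 17.1% and 8.19% of all genes.

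These counts moved with the arrays used. With arrays 9 to 16 alone, 33 members passed in Wnt4-deleted cells (18% of all genes called in either direction) and 29 in WT cells (17%). Without arrays 13 to 16 the counts were 1 (6.77%) and 0 (6.72%), and without arrays 9 to 12 they were 3 (7.05%) and 1 (6.89%). Most differences stayed positive in these fits. Without arrays 13 to 16 their median was 1.54 in Wnt4-deleted and 1.15 in WT cells, with 34 of 35 positive in each. Without arrays 9 to 12 the median was 1.83 (34 positive) in Wnt4-deleted and 1.67 (35 positive) in WT cells. The shares of all genes in this paragraph count calls in either direction, so they are not a like background for members called higher. Leaving out 1 CD24 low array gave 31 (array 3), 6 (array 11) and 7 (array 15) calls in Wnt4-deleted cells, and 19 (array 1), 1 (array 9) and 2 (array 13) calls in WT cells. The WT count was also 21 without Wnt4-deleted array 3, through the shared estimate of spread. Leaving out CD24 high arrays gave 8 (array 4) and 6 (array 16) calls in Wnt4-deleted cells, and 3 (array 2), 7 (array 10) and 1 (array 14) in WT cells. Over the fits that left out 1 array, 10.8% to 18.2% of all genes were called in Wnt4-deleted and 11.4% to 17.7% in WT cells. Single genes lost their calls in the same way. Of 25 other settings, 8 ended the call of Emcn in each genotype, 8 in Wnt4-deleted and 7 in WT cells that of Cdh5 and of Ptprb, and 8 in Wnt4-deleted and 9 in WT cells that of Esam. For Tek, S1pr1, Calcrl and Mmrn2 the calls ended under 2 to 7 settings in Wnt4-deleted cells and 6 to 9 in WT cells. Among genes called in Wnt4-deleted cells only, the call ended under 15 settings for Plvap, 11 for Flt1, 8 for Pecam1, Ramp2 and Erg, 3 for Flt4 and 1 for Mmrn1. Flt4 and Mmrn1 had 24 other settings, as the filter on mean level removed them. Their mean levels were low, at the 29.4th and 11.8th percentile of all genes.

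**Figure D1:**
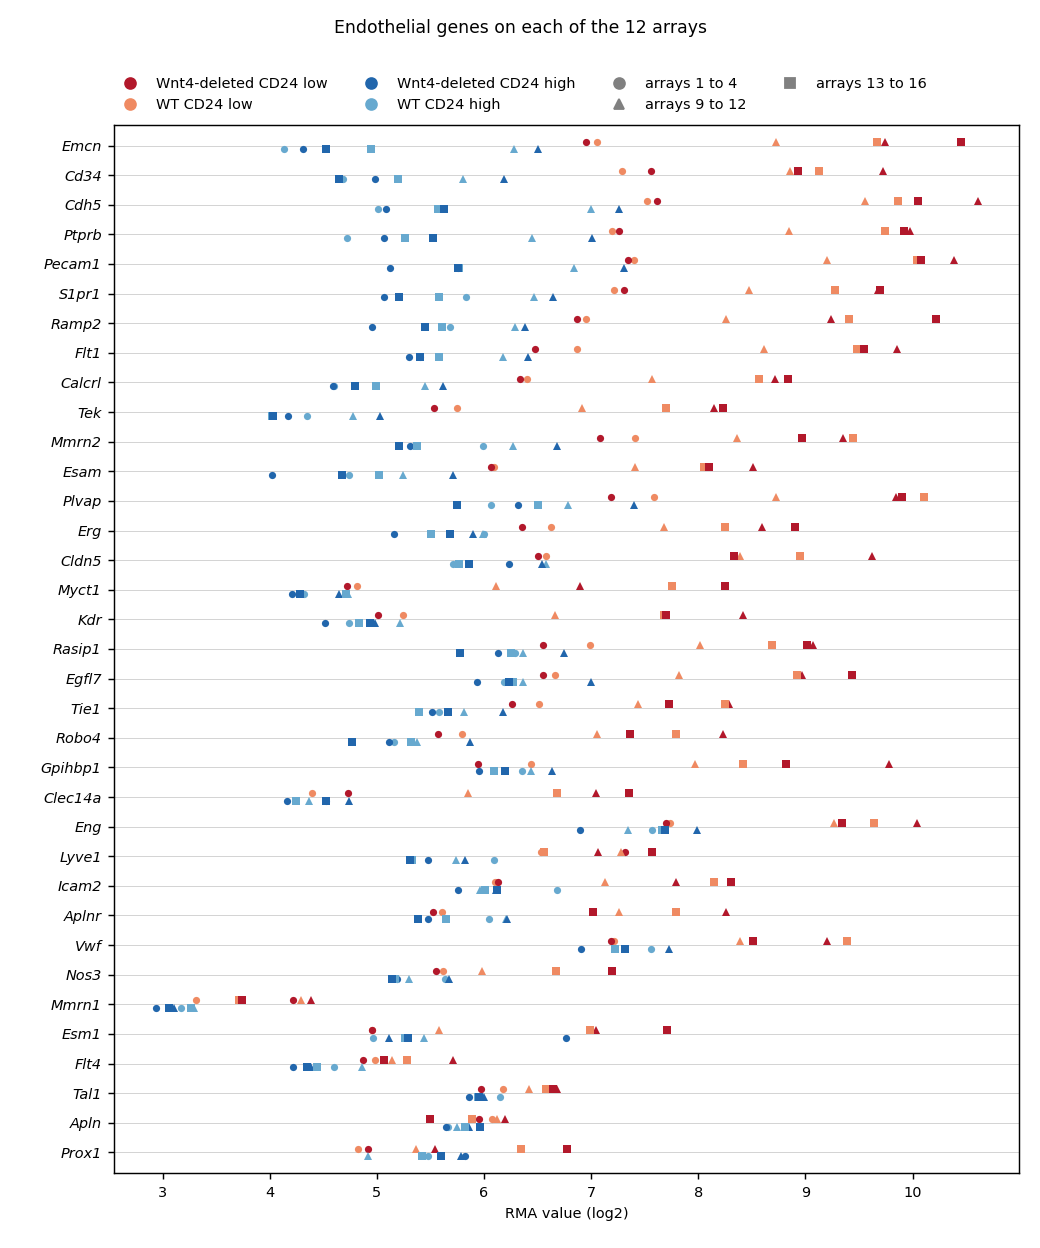
RMA values (log2, x axis) of the 35 endothelial genes (rows) on each of the 12 arrays. Colours mark the 4 groups and symbols the set of title numbers. For 17 of the 35 genes every CD24 low array lies to the right of every CD24 high array, and the CD24 low circles (arrays 1 and 3) lie to the left of the other CD24 low arrays for 32.

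**Figure D2:**
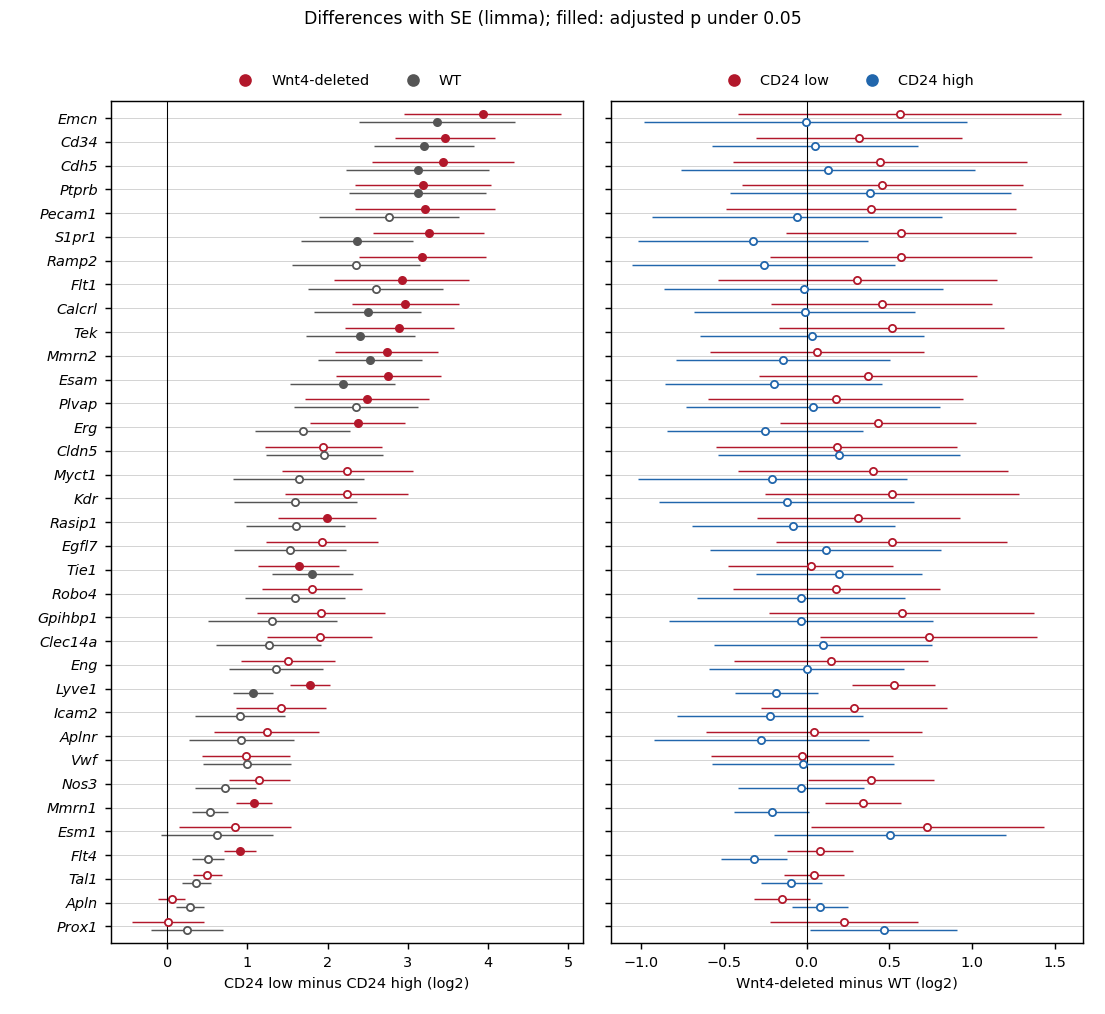
Differences on the log2 scale (points) with their SE from limma (lines) for the 35 genes, CD24 low minus CD24 high on the left and Wnt4-deleted minus WT on the right, 3 arrays a group. Filled points have an adjusted p under 0.05: there are 19 in Wnt4-deleted and 11 in WT cells on the left and 0 on the right.

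Promoter sequence was looked up because the members include Erg, an ETS factor, whose family binds sites with a GGAA core. Whether ETS factors act on these promoters was not tested. RefSeq promoters (mouse build GRCm38.p6) were at hand for 21 of the 35 members, with 27 start sites. In the 250 bases before the start, the letters AGGAAG were found on either strand in 12 of these 27 promoters (44.4%), against 29.5% of all 32851 promoters in the table, and CGGAAG in 1 (3.7%), against 13.6%. Either motif was present in 44.4% of the members' promoters, against 39.2% of all. Shown are the promoters of the 4 members with the greatest differences between the fractions over both genotypes among those whose tabulated window overlapped the RefSeq span of their own gene by a small part of its length at most. Of these, Cldn5 passed in neither genotype and Erg in Wnt4-deleted cells only. Each promoter is written 5′ to 3′ on the strand of the gene and ending just before its tabulated start site. For Emcn and Erg that site lies inside the RefSeq span of the gene. Capitals mark AGGAAG or, where the match is on the other strand, its reverse complement CTTCCT. The windows are chr3:137340828-137341077 (plus strand) for Emcn, chr1:194938571-194938820 (plus) for Cd34, chr16:95586594-95586843 (minus) for Erg and chr16:18776597-18776846 (plus) for Cldn5.
Emcn: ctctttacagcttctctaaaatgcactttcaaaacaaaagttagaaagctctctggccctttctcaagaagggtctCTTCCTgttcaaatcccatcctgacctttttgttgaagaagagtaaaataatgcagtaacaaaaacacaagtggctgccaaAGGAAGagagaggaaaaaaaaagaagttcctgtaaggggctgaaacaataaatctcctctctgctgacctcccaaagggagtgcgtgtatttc
Cd34: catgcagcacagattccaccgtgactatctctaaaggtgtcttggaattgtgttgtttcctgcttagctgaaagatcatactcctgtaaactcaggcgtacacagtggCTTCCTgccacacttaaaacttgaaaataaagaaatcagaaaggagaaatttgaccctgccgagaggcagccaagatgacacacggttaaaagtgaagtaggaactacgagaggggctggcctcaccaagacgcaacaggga
Erg: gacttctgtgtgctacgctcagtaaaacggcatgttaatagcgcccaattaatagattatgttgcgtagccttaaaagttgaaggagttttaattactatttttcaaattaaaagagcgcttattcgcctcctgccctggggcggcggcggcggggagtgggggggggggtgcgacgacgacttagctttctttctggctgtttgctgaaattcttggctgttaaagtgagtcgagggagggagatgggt
Cldn5: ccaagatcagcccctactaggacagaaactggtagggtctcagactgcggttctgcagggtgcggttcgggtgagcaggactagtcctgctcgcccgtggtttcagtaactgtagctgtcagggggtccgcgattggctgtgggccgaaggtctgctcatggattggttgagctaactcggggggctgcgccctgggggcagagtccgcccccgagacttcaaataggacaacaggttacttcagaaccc
Emcn holds 2 matches, 1 on each strand, Cd34 holds 1, and Erg and Cldn5 hold 0 in these windows.

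In the counts by role and by list that follow, higher and lower mean called at an adjusted p under 0.05. The comparison is CD24 low against CD24 high cells of the same genotype. Among the adhesion proteins of endothelial junctions, 4 of 6 were higher in Wnt4-deleted CD24 low cells and 3 of 6 in WT CD24 low cells. Cdh5, the cadherin of adherens junctions, read 7.61, 10.61 and 10.05 on Wnt4-deleted CD24 low arrays 3, 11 and 15, against 5.08, 7.26 and 5.62 on Wnt4-deleted CD24 high arrays 4, 12 and 16. In WT cells Cdh5 read 7.52, 9.55 and 9.87 on CD24 low arrays 1, 9 and 13, against 5.01, 7.0 and 5.57 on CD24 high arrays 2, 10 and 14. No CD24 low array reached down to a CD24 high array, and CD24 high arrays 10 and 12 were the highest of their fraction. Values of the other genes are given in the same order of arrays. The difference was 3.44 (SE 0.89, adjusted p = 0.0217, 10.8-fold) in Wnt4-deleted cells and 3.12 (SE 0.89, adjusted p = 0.0345, 8.7-fold) in WT cells.

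Ptprb, the receptor phosphatase VE-PTP that acts on VE-cadherin and Tie2, followed the same order. Its levels were 7.26, 9.98 and 9.92 in Wnt4-deleted CD24 low cells, against 5.06, 7.01 and 5.52 in Wnt4-deleted CD24 high cells. They were 7.19, 8.85 and 9.75 in WT CD24 low cells, against 4.72, 6.44 and 5.27 in WT CD24 high cells. The fractions did not overlap, and the difference was 3.19 (SE 0.85, adjusted p = 0.0245) in Wnt4-deleted cells and 3.12 (SE 0.85, adjusted p = 0.0275) in WT cells. Pecam1, the adhesion molecule CD31, which leukocytes and platelets also carry, read 7.34, 10.39 and 10.08 in Wnt4-deleted CD24 low cells, against 5.13, 7.30 and 5.75 in Wnt4-deleted CD24 high cells. In WT cells it read 7.40, 9.20 and 10.04 in the CD24 low fraction, against 5.75, 6.84 and 5.76 in the CD24 high fraction. Here too the fractions did not overlap. The Pecam1 difference of 3.21 (SE 0.87) in Wnt4-deleted cells had an adjusted p of 0.0278, and that of 2.76 (SE 0.87) in WT cells had an adjusted p of 0.0541 and missed the threshold.

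Esam, an immunoglobulin-type adhesion molecule of endothelial tight junctions, read 6.06, 8.51 and 8.10 in Wnt4-deleted CD24 low cells, against 4.02, 5.71 and 4.68 in Wnt4-deleted CD24 high cells. Its WT values were 6.09, 7.41 and 8.05 in CD24 low cells, against 4.74, 5.24 and 5.02 in CD24 high cells. The lowest CD24 low arrays were again 1 and 3, still above every CD24 high array. Esam differed by 2.76 (SE 0.66, adjusted p = 0.0142) in Wnt4-deleted and 2.19 (SE 0.66, adjusted p = 0.0438) in WT cells. The other 2 junction genes did not pass in either genotype. Cldn5, the claudin of endothelial tight junctions, differed by 1.94 (SE 0.73, adjusted p = 0.101) in Wnt4-deleted and 1.96 (SE 0.73, adjusted p = 0.101) in WT cells, and on arrays 3 and 1 it was at 6.50 and 6.58, within the range of the CD24 high arrays (5.71 to 6.57) or just above it. Icam2, a ligand of leukocyte integrins that endothelium displays without inflammation, differed by 1.42 and 0.91 (adjusted p = 0.120 and 0.361 in Wnt4-deleted and WT cells).

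Surface and glycocalyx genes included the members with the widest gaps between the fractions, and 4 of 6 were higher in Wnt4-deleted CD24 low cells and 3 of 6 in WT CD24 low cells. Emcn, the sialomucin endomucin of capillary and venous endothelium, read 6.95, 9.74 and 10.45 in Wnt4-deleted CD24 low cells, against 4.31, 6.51 and 4.53 in Wnt4-deleted CD24 high cells. On WT arrays it stood at 7.05, 8.73 and 9.67 in CD24 low cells, against 4.13, 6.28 and 4.94 in CD24 high cells. Both fractions spread by over 2 units within a group without overlapping. The difference was 3.93 (SE 0.98, adjusted p = 0.0176, 15.3-fold) in Wnt4-deleted cells and 3.36 (SE 0.98, adjusted p = 0.0374, 10.3-fold) in WT cells.

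Cd34, a sialomucin of vascular endothelium that blood progenitors and many fibroblasts also carry, read 7.56, 9.72 and 8.93 in Wnt4-deleted CD24 low cells, against 4.98, 6.19 and 4.65 in Wnt4-deleted CD24 high cells. Its WT values were 7.29, 8.85 and 9.12 in CD24 low cells, against 4.68, 5.80 and 5.19 in CD24 high cells. The gap was wide on every set, and the differences of 3.47 in Wnt4-deleted cells (SE 0.62, adjusted p = 0.00271) and 3.20 in WT cells (SE 0.62, adjusted p = 0.0045) kept their call under 24 of 25 other settings in each genotype, the exception being the fit without arrays 13 to 16 (adjusted p = 0.0953 in Wnt4-deleted and 0.118 in WT cells).

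Lyve1, the hyaluronan receptor of lymphatic endothelium that some macrophages share, had a smaller difference, and the smallest SE among the 11 members called in both genotypes. It read 7.31, 7.07 and 7.57 in Wnt4-deleted CD24 low cells, against 5.47, 5.82 and 5.31 in Wnt4-deleted CD24 high cells. In WT cells it read 6.53, 7.28 and 6.56 in the CD24 low fraction, against 6.09, 5.74 and 5.32 in the CD24 high fraction. Arrays 1 and 3 did not stand below the other CD24 low arrays for this gene. Its difference was 1.78 (SE 0.25, adjusted p = 0.00055) in Wnt4-deleted cells, called under all 25 other settings, and 1.07 (SE 0.25, adjusted p = 0.0130) in WT cells, which missed the threshold without arrays 9 to 12 (0.123), without arrays 13 to 16 (0.106), without array 9 (0.0507) and without array 14 (0.0564). Plvap, the protein of the diaphragms of fenestrated capillaries, passed in Wnt4-deleted cells by a narrow margin (2.49, SE 0.77, adjusted p = 0.0484) and not in WT cells (2.35, SE 0.77, adjusted p = 0.0614). Clec14a, a C-type lectin of sprouting endothelium, and Gpihbp1, which anchors lipoprotein lipase to capillary walls, had differences of 1.90 and 1.92 in Wnt4-deleted cells and 1.26 and 1.31 in WT cells, with adjusted p between 0.0745 and 0.355. Gpihbp1 on CD24 low arrays 3 and 1 (5.94 and 6.44) did not rise above the CD24 high arrays (5.95 to 6.63).

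Of the 5 receptor tyrosine kinases that sense VEGF and angiopoietins, 4 were higher in Wnt4-deleted CD24 low cells and 2 in WT CD24 low cells. Tek, the angiopoietin receptor Tie2, read 5.53, 8.14 and 8.23 in Wnt4-deleted CD24 low cells, against 4.17, 5.03 and 4.03 in Wnt4-deleted CD24 high cells. The WT samples had 5.75, 6.92 and 7.70 in CD24 low cells, against 4.34, 4.77 and 4.02 in CD24 high cells. The fractions did not overlap, and Tek differed by 2.89 in Wnt4-deleted cells (SE 0.68, adjusted p = 0.0131) and by 2.41 in WT cells (SE 0.68, adjusted p = 0.0326). Tie1, the partner of Tie2 that binds no angiopoietin by itself, differed by 1.64 (SE 0.50, adjusted p = 0.0465) in Wnt4-deleted and 1.81 (SE 0.50, adjusted p = 0.0301) in WT cells, and its call ended under 15 of the 25 other settings in Wnt4-deleted cells and 8 in WT cells.

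Flt1, the VEGF receptor that binds VEGF tightly and limits its supply, read 6.47, 9.86 and 9.55 in Wnt4-deleted CD24 low cells, against 5.30, 6.41 and 5.40 in Wnt4-deleted CD24 high cells. Its WT values were 6.86, 8.61 and 9.48 in CD24 low cells, against 5.40, 6.18 and 5.58 in CD24 high cells. Array 3 was only just above the highest CD24 high array. Flt1 differed by 2.92 (SE 0.84, adjusted p = 0.0362) in Wnt4-deleted cells and by 2.60 (SE 0.84, adjusted p = 0.0595) in WT cells. Kdr, the main signalling receptor for VEGF, did not pass in either genotype. It read 5.01, 8.42 and 7.70 in Wnt4-deleted CD24 low cells, against 4.52, 4.98 and 4.93 in Wnt4-deleted CD24 high cells, and the difference was 2.23 (SE 0.77, adjusted p = 0.0741). In WT cells Kdr read 5.24, 6.66 and 7.68 in the CD24 low fraction, against 4.74, 5.21 and 4.84 in the CD24 high fraction, a difference of 1.60 (SE 0.77, adjusted p = 0.22). Kdr was thus close to the CD24 high level on arrays 1 and 3 and well above it on the other CD24 low arrays. Flt4, the receptor for the lymphatic growth factor VEGF-C, had a narrow spread and differed by 0.90 (SE 0.20, adjusted p = 0.00938) in Wnt4-deleted cells and 0.50 (SE 0.20, adjusted p = 0.125) in WT cells.

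Among the 6 co-receptors and G protein-coupled receptors, 3 were higher in Wnt4-deleted CD24 low cells and 2 of these in WT CD24 low cells. S1pr1, the receptor for sphingosine-1-phosphate that stabilises the vessel wall, read 7.30, 9.68 and 9.70 in Wnt4-deleted CD24 low cells, against 5.07, 6.64 and 5.20 in Wnt4-deleted CD24 high cells. On WT arrays it stood at 7.21, 8.48 and 9.28 in CD24 low cells, against 5.83, 6.47 and 5.58 in CD24 high cells. The differences were 3.26 in Wnt4-deleted cells (SE 0.70, adjusted p = 0.00772) and 2.36 in WT cells (SE 0.70, adjusted p = 0.0397), with no overlap of the fractions. Calcrl and Ramp2 together form the adrenomedullin receptor. Calcrl read 6.34, 8.71 and 8.84 in Wnt4-deleted CD24 low cells, against 4.59, 5.61 and 4.79 in Wnt4-deleted CD24 high cells. In WT cells it read 6.40, 7.57 and 8.56 in the CD24 low fraction, against 4.59, 5.44 and 4.99 in the CD24 high fraction. Calcrl passed in both genotypes, with 2.97 in Wnt4-deleted cells (SE 0.67, adjusted p = 0.0105) and 2.50 in WT cells (SE 0.67, adjusted p = 0.0253).

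Its partner Ramp2 read 6.87, 9.24 and 10.22 in Wnt4-deleted CD24 low cells, against 4.96, 6.38 and 5.45 in Wnt4-deleted CD24 high cells. The WT values of Ramp2 were 6.95, 8.26 and 9.41 in CD24 low cells, against 5.68, 6.29 and 5.60 in CD24 high cells. Both parts of this receptor thus lay higher on all 6 CD24 low arrays than on any CD24 high array. Ramp2 differed by 3.18 (SE 0.79, adjusted p = 0.0180) in Wnt4-deleted cells, and its WT difference of 2.35 (SE 0.79, adjusted p = 0.0702) missed the threshold. Eng, the TGF-beta co-receptor endoglin, Robo4, a guidance receptor of vessel stability, and Aplnr, the apelin receptor, did not pass, with differences of 1.5, 1.8 and 1.24 in Wnt4-deleted cells and 1.35, 1.59 and 0.92 in WT cells. Aplnr read 5.52 and 5.61 on CD24 low arrays 3 and 1, inside the range of the CD24 high arrays (5.38 to 6.22), and 7.02 to 8.26 on the other 4.

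Of the 6 secreted proteins of endothelium, 2 were higher in Wnt4-deleted CD24 low cells and 1 in WT CD24 low cells. Mmrn2, a multimerin of the vascular matrix, read 7.08, 9.35 and 8.97 in Wnt4-deleted CD24 low cells, against 5.31, 6.68 and 5.21 in Wnt4-deleted CD24 high cells. The WT samples had 7.41, 8.36 and 9.44 in CD24 low cells, against 5.99, 6.27 and 5.37 in CD24 high cells. Mmrn2 thus showed no overlap, and differed by 2.73 in Wnt4-deleted cells (SE 0.65, adjusted p = 0.0136) and by 2.53 in WT cells (SE 0.65, adjusted p = 0.0205). Mmrn1, a related multimerin of platelets and lymphatic endothelium, passed in Wnt4-deleted cells and not in WT cells (1.08, SE 0.23, adjusted p = 0.0070; 0.53, SE 0.23, adjusted p = 0.159 in WT cells). The difference between the genotypes was not called for Mmrn1 or any other member, as given below.

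Vwf, the platelet-binding factor stored in endothelial granules, read 7.19, 9.20 and 8.51 in Wnt4-deleted CD24 low cells, against 6.90, 7.72 and 7.32 in Wnt4-deleted CD24 high cells. Its WT values were 7.21, 8.39 and 9.39 in CD24 low cells, against 7.56, 7.22 and 7.22 in CD24 high cells. The fractions overlapped through arrays 1 and 3, and the difference was 0.99 (SE 0.55) in both genotypes (adjusted p = 0.285 in Wnt4-deleted and 0.297 in WT cells). Esm1, a proteoglycan of tip cells at the front of sprouting vessels, read 4.95, 7.04 and 7.71 in Wnt4-deleted CD24 low cells, against 6.76, 5.11 and 5.29 in Wnt4-deleted CD24 high cells. On WT arrays it stood at 4.95, 5.58 and 6.99 in CD24 low cells, against 4.96, 5.44 and 5.26 in CD24 high cells. Array 4 was the high one among the CD24 high arrays, and the differences of 0.84 in Wnt4-deleted and 0.62 in WT cells did not pass (adjusted p = 0.505 and 0.679). Apln, the ligand of Aplnr made by tip cells, was flat. It read 5.95, 6.19 and 5.49 in Wnt4-deleted CD24 low cells, against 5.64, 5.86 and 5.96 in Wnt4-deleted CD24 high cells, and the difference of 0.06 (SE 0.17, adjusted p = 0.888) took the other sign under 6 of 25 settings, median centring among them. In WT cells Apln read 6.07, 6.12 and 5.89 in the CD24 low fraction, against 5.66, 5.75 and 5.82 in the CD24 high fraction, a difference of 0.28 (SE 0.17, adjusted p = 0.341). Egfl7, a secreted protein of the endothelial matrix, differed by 1.93 in Wnt4-deleted and 1.53 in WT cells without passing (adjusted p = 0.0889 and 0.192).

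Of the 3 transcription factors, Erg alone passed, and in Wnt4-deleted cells only. Erg, an ETS factor that maintains endothelial identity, read 6.35, 8.59 and 8.90 in Wnt4-deleted CD24 low cells, against 5.16, 5.90 and 5.68 in Wnt4-deleted CD24 high cells. The WT samples had 6.62, 7.68 and 8.25 in CD24 low cells, against 6.0, 5.99 and 5.50 in CD24 high cells. All 6 CD24 low arrays lay above all 6 CD24 high arrays, with differences of 2.37 in Wnt4-deleted cells (SE 0.59, adjusted p = 0.0182) and 1.69 in WT cells (SE 0.59, adjusted p = 0.0814). Tal1, a factor of early blood and endothelial cells, read 5.97, 6.68 and 6.64 in Wnt4-deleted CD24 low cells, against 5.86, 6.0 and 5.95 in Wnt4-deleted CD24 high cells. The WT values of Tal1 were 6.18, 6.42 and 6.57 in CD24 low cells, against 6.15, 5.99 and 5.95 in CD24 high cells, and its differences of 0.50 in Wnt4-deleted and 0.36 in WT cells did not pass (adjusted p = 0.0935 and 0.248).

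Prox1, which specifies lymphatic endothelium, rose over the sets in CD24 low cells and not in CD24 high cells. CD24 low minus CD24 high was -0.78, 0.11 and 1.05 over the 3 sets. It read 4.91, 5.54 and 6.77 in Wnt4-deleted CD24 low cells, against 5.82, 5.78 and 5.60 in Wnt4-deleted CD24 high cells. In WT cells it read 4.83, 5.37 and 6.34 in the CD24 low fraction, against 5.47, 4.91 and 5.42 in the CD24 high fraction. CD24 low arrays 13 and 15 were the highest of all 12 arrays and arrays 1 and 3 the lowest CD24 low arrays, so that the fractions overlapped. The difference was 0.01 (SE 0.45, adjusted p = 0.996) in Wnt4-deleted cells, with its sign turned under 5 of 25 settings, median centring among them, and 0.24 (SE 0.45, adjusted p = 0.823) in WT cells, with its sign turned under 2.

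Among the 3 genes that act inside the cell, Rasip1, a protein needed for vessels to form lumens, passed in Wnt4-deleted cells (1.99, SE 0.61, adjusted p = 0.0476) and not in WT cells (1.60, SE 0.61, adjusted p = 0.111). Its call ended under 15 of 25 other settings. Nos3, the endothelial nitric oxide synthase, read 5.55, 6.68 and 7.20 in Wnt4-deleted CD24 low cells, against 5.19, 5.67 and 5.14 in Wnt4-deleted CD24 high cells. Its WT values were 5.62, 5.98 and 6.67 in CD24 low cells, against 5.63, 5.30 and 5.17 in CD24 high cells. Arrays 1 and 3 lay within the CD24 high range, and the differences of 1.15 in Wnt4-deleted and 0.72 in WT cells did not pass (adjusted p = 0.0646 and 0.270). Myct1, a membrane protein of endothelial cells, differed by 2.25 in Wnt4-deleted and 1.64 in WT cells (adjusted p = 0.0898 and 0.238), and it read 4.72 and 4.81 on CD24 low arrays 3 and 1 and 6.11 to 8.25 on the other CD24 low arrays.

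The level of the endothelial genes in CD24 low cells depended on the set of title numbers. On all 4 CD24 low arrays of sets 9 to 12 and 13 to 16, 32 of 35 members lay above both arrays 1 and 3 (91.4%, against a background of 11.9% of all genes), the exceptions being Apln, Lyve1 and Mmrn1, and no member lay below. The median shift between these arrays was 1.94 (3.85-fold), against -0.02 over all genes, with the greatest shifts in Flt1 (2.71), Emcn (2.65), Gpihbp1 (2.56) and Pecam1 (2.56). In CD24 high cells the same split held for 8 of 35 members (background 6.07%), with a median of 0.22. These were Pecam1, Cdh5, Kdr, Emcn, Egfl7, Ptprb, Apln and Calcrl. The mean over the 35 members was 6.23, 8.38 and 8.26 on Wnt4-deleted CD24 low arrays 3, 11 and 15 and 6.28, 7.45 and 8.14 on WT CD24 low arrays 1, 9 and 13. It was 5.26, 6.09 and 5.36 on Wnt4-deleted CD24 high arrays 4, 12 and 16 and 5.47, 5.86 and 5.46 on WT CD24 high arrays 2, 10 and 14.

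The difference between the fractions was present within each set but differed in size. With the arrays of both genotypes averaged, CD24 low minus CD24 high had a median over the members of 0.57 (30 of 35 positive) in set 1 to 4, 2.02 (35 positive) in set 9 to 12 and 2.83 (34 positive) in set 13 to 16, against medians of -0.02, -0.02 and 0.01 over all genes. For 31 of 35 members it was smallest in set 1 to 4 and largest in set 13 to 16, a pattern of 21.1% of all genes, with Apln, Eng, Flt4 and Mmrn1 as the exceptions. Emcn differed by 2.78, 2.83 and 5.32 over the 3 sets and Cd34 by 2.59, 3.30 and 4.12. Kdr differed by 0.50, 2.44 and 2.80, and Gpihbp1 by 0.03, 2.34 and 2.48. The members thus covered a range. Emcn, Cd34, Cdh5 and Ptprb were well above the CD24 high level on every set. Gpihbp1, Vwf, Aplnr and Icam2 were near it in set 1 to 4. Others lay between, such as Flt1 and Tie1, with differences of 1.32 and 0.84 in that set. CD24 low arrays 1 and 3 lay above CD24 high arrays 2 and 4 for 26 members (background 21.6%), and CD24 low arrays 9, 11, 13 and 15 above all 6 CD24 high arrays for 32 (11.3%), Apln, Esm1 and Prox1 being the exceptions. Within the CD24 high fraction, arrays 10 and 12 were above the other 4 for 21 members (3.99%). With the set as a fixed block, 27 members passed in Wnt4-deleted cells (18.8% of all genes called) and 19 in WT cells (18.2%).

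**Figure D3:**
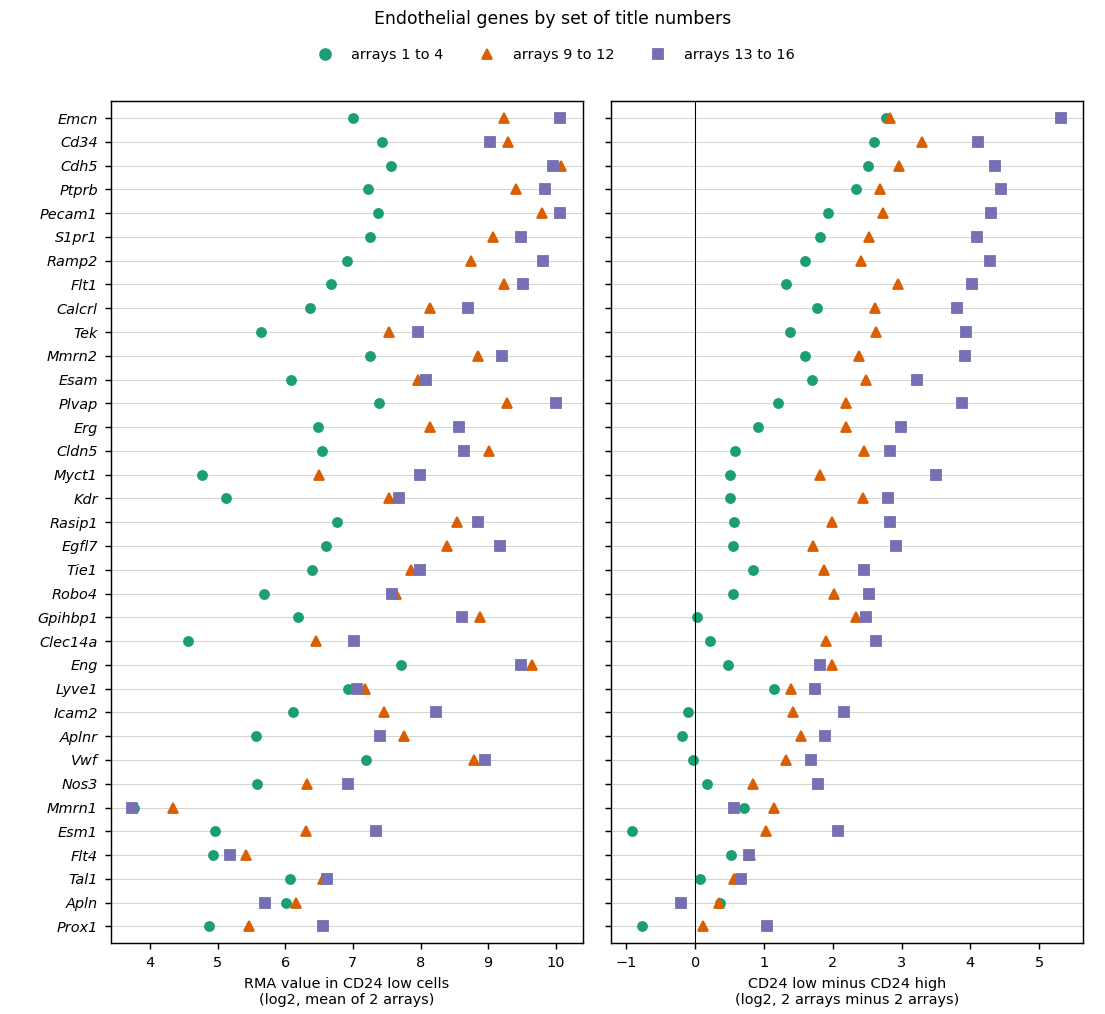
Values of the 35 genes by set of title numbers. The left panel shows the RMA level (log2) in CD24 low cells as the mean of 2 arrays, 1 of each genotype, and the right panel CD24 low minus CD24 high (log2, 2 arrays minus 2 arrays); the medians over the genes on the right are 0.57, 2.02 and 2.83 for the 3 sets.

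The genotypes were then compared within each fraction, as the study did for all genes. Not 1 of the 35 endothelial genes passed between Wnt4-deleted and WT cells (limma), in the CD24 low fraction (background 0.00502%, 1 gene of 19938), in the CD24 high fraction (background 0.00502%) or in the difference of these effects (background 0%), and 0 members were under an unadjusted p of 0.05 in each of the 3, against 3.06%, 1.99% and 1.37% of all genes. The 1 gene called in each fraction was higher in Wnt4-deleted cells, and 0 genes were called lower. Wnt4 itself, lower on every Wnt4-deleted than on every WT CD24 high array, was thus not called. The absence of calls therefore does not show that the members were unchanged. In CD24 low cells 33 of 35 differences were positive, with a median of 0.37 (range -0.15 to 0.74), against -0.02 over all genes, and the smallest unadjusted p was 0.059 for Lyve1 (0.53, SE 0.25, adjusted p = 1.0). The median SE of a member was 0.66. These counts rested on single arrays: 7 differences were positive without array 1 (median -0.14), 15 without array 11 (median -0.10) and 19 without array 15 (median 0.01), while without array 3 there were 34 (median 1.12) and without array 13 also 34 (median 0.80). Unadjusted p fell under 0.05 for 12 members without array 3, for 5 with arrays 9 to 16 only and for 4 with the set as a fixed block within the fraction, and the last fit gave 3 in the difference of effects, with 0 adjusted calls in each. In CD24 high cells 13 of 35 were positive, with a median of -0.03 (range -0.32 to 0.50), and leaving out 1 array gave 4 (array 12) to 24 (array 4) positive differences. No member separated the genotypes in CD24 low cells, while 2.65% of all genes lay wholly higher and 4.12% wholly lower in Wnt4-deleted cells. In CD24 high cells Prox1 lay wholly higher in Wnt4-deleted cells (2.86% of members, 2.04% of all genes). Flt4 and Mmrn1 lay wholly lower (5.71% of members, 4.97% of all genes). The differences were 0.46, -0.32 and -0.21, and both shares were near those of all genes.

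The 3 sets differed in this median. Array 11 was above array 9 for 34 of 35 members, all but Lyve1 (47.2% of all genes), with a median of 1.01. Array 15 was above array 13 for 24 members (46.4%), with a median of 0.16, and array 3 above array 1 for 10 members (48.5%), with a median of -0.09. The mean over the members was 7.62 (SD 1.21, n = 3) in Wnt4-deleted and 7.29 (SD 0.94, n = 3) in WT CD24 low cells, and 5.57 (SD 0.45, n = 3) in Wnt4-deleted and 5.59 (SD 0.23, n = 3) in WT CD24 high cells.

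Other genes of vessels gave a mixed picture. As background to the counts of these lists, 8.22% of all genes were called higher and 8.23% lower in Wnt4-deleted CD24 low cells. The shares in WT CD24 low cells were 8.21% higher and 7.93% lower. Of 32 further endothelial markers, 13 were higher and 1 lower in Wnt4-deleted CD24 low cells and 12 were higher and 0 lower in WT CD24 low cells (medians 1.70 in Wnt4-deleted and 1.39 in WT cells). Icam1 and Vcam1, receptors for leukocyte integrins, differed by 2.32 and 3.89 in Wnt4-deleted cells and by 2.81 and 4.07 in WT cells, with shifts of -0.01 and -0.51 between arrays 1 and 3 and the other CD24 low arrays. Podxl, a sialomucin of endothelium and epithelium, had differences of -1.34 in Wnt4-deleted and -1.55 in WT cells that did not pass (adjusted p = 0.132 and 0.0840). Of 10 further lymphatic markers, all 10 were higher in Wnt4-deleted and 8 in WT CD24 low cells (medians 2.61 in Wnt4-deleted and 2.07 in WT cells). They are led by Pdpn, the mucin podoplanin, which myoepithelial cells also carry, with 4.42 in Wnt4-deleted cells (SE 0.20, adjusted p = 2.61e-07) and 4.13 in WT cells (SE 0.20, adjusted p = 3.75e-07), and with a shift of -0.27 between the sets.

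Of 21 ligands that act on vessels, 8 were higher in Wnt4-deleted CD24 low cells (0 lower), and 6 higher and 1 lower in WT CD24 low cells. Slit2, a ligand of Robo receptors, differed by 3.43 in Wnt4-deleted and 3.40 in WT cells. Jag1, a Notch ligand, differed by 1.76 in Wnt4-deleted and 2.17 in WT cells. Angpt1, the ligand of Tek, differed by -1.32 (adjusted p = 0.0654) in Wnt4-deleted cells and by -2.28 (adjusted p = 0.00419) in WT cells. Of 18 vascular co-receptors and modulators, 12 were higher in Wnt4-deleted and 9 in WT CD24 low cells, among them the chemokine receptor Ackr3 with 3.03 in Wnt4-deleted and 2.57 in WT cells. Of 26 endothelial transcription factors, 9 were higher and 2 lower in Wnt4-deleted cells and 7 higher and 1 lower in WT cells, with differences of 3.14 in Wnt4-deleted and 2.93 in WT cells for Epas1, the hypoxia-inducible factor HIF-2alpha, and of -0.76 and -0.72 for Etv6, an ETS repressor. Arrays 9, 11, 13 and 15 all lay above arrays 1 and 3 for 23 of 32 further endothelial markers, 19 of 26 transcription factors, 11 of 18 co-receptors, 4 of 21 ligands and 2 of 10 lymphatic markers (background 11.9%). They lay below for 2 further endothelial markers, 3 lymphatic markers and 0 genes of the other 3 lists (background 15.9%). No test of a difference between the lists was made.

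Markers of other cell types of the mammary stroma were set beside the members, and their part in the endothelial results was not tested. For reading the counts, 8.22% of all genes were called higher in Wnt4-deleted and 8.21% in WT CD24 low cells. Of 15 pericyte markers, 6 were higher in Wnt4-deleted CD24 low cells and 4 higher and 1 lower in WT CD24 low cells. Their mean per array was 6.24 to 7.45 in Wnt4-deleted and 6.12 to 7.13 in WT CD24 low cells, against 5.46 to 5.94 in Wnt4-deleted and 5.63 to 5.88 in WT CD24 high cells. Of 16 fibroblast markers, 4 were higher in each genotype, with means of 6.43 to 8.29 and 6.44 to 8.57 in Wnt4-deleted and WT CD24 low cells, against 5.68 to 6.06 and 5.83 to 6.06 in Wnt4-deleted and WT CD24 high cells. The 2 highest fibroblast means, 8.29 and 8.57, were on arrays 11 and 9, where the means of the endothelial members were 8.38 and 7.45. On arrays 15 and 13 the endothelial means were 8.26 and 8.14 and the fibroblast means 6.96 and 6.55. Of 17 immune markers, 1 was higher in both genotypes, Cd74, the invariant chain of MHC class II, and 1 was lower in Wnt4-deleted cells. The immune means were 4.66 to 5.53 and 4.79 to 5.71 in Wnt4-deleted and WT CD24 low cells, against 4.41 to 4.63 and 4.59 to 4.67 in Wnt4-deleted and WT CD24 high cells. Arrays 9, 11, 13 and 15 all lay above arrays 1 and 3 for 8 of 15 pericyte, 5 of 16 fibroblast and 10 of 17 immune markers (background 11.9%), and below for 0 of each.

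Skeletal muscle markers ran the other way over the sets. Their means were 7.20 and 6.42 on CD24 low arrays 3 and 1, against 5.08 to 5.35 on the other 4, and 15 of 17 lay lower on all 4 arrays of sets 9 to 16 than on both arrays 1 and 3 (background 15.9%). Acta1, the actin of skeletal muscle, shifted by -3.65. Of these 17 markers 1 was higher in Wnt4-deleted CD24 low cells and 0 in WT CD24 low cells. Adipocyte markers (0 of 10 higher, 1 and 2 lower in Wnt4-deleted and WT CD24 low cells) and erythroid markers (0 of 5 in either direction) had means that overlapped between the fractions.

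**Figure D4:**
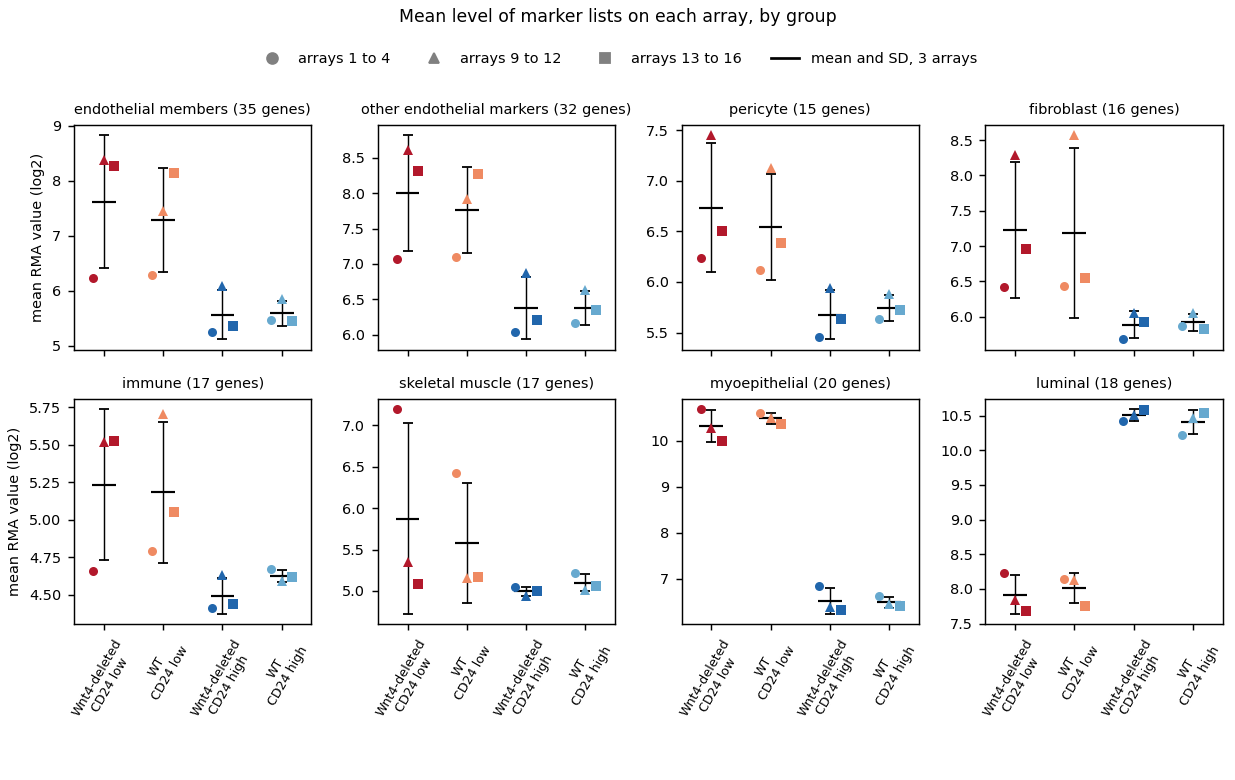
Mean RMA value (log2) per array of 8 marker lists, by group, with symbols for the set of title numbers and lines for the mean and SD of 3 arrays. The endothelial mean runs from 6.23 to 8.38 on CD24 low arrays and from 5.26 to 6.09 on CD24 high arrays, and its 2 low CD24 low arrays (circles) are those on which skeletal muscle markers are high.

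Genes outside the list that followed the mean profile of the members most closely over the 12 arrays were found by the root mean square distance between profiles, each centred on its own mean. The nearest were Adcy4 (0.20), an adenylate cyclase, Rasgrf2 (0.20), an exchange factor for Ras, and Gbp4 (0.21), an interferon-induced GTPase. Gimap4 (0.23), a GTPase of lymphocytes that was also placed on the list of further endothelial markers, Mustn1 (0.23), C1qtnf9 (0.24), Csf2rb (0.25), a shared subunit of cytokine receptors, Dipk2b (0.26), Abcb1a (0.26), a drug efflux pump, Zeb1 (0.27), a repressor of epithelial genes, Chp2 (0.28) and Rasgrp3 (0.28) came next. Among the members Rasip1 was nearest to the mean profile (0.16) and Apln farthest (1.12).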

How the data were processed

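The authors hybridised total RNA of 12 sorted samples to Affymetrix gene arrays, 1 array per sample. Per the labels the deposited values were made by RMA in Affymetrix Expression Console 1.1.2800, and they are taken as log2 values from that method and from their range (1.62 to 13.80). Such values hold no depth, the number of arrays limits the precision, and the quantile step of RMA assumes that most genes do not change.

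Of 35556 probesets, 21789 had 1 gene symbol, 1621 had several and 12146 none. Each of the 999 genes with several probesets was represented by its brightest one on average, which left 19938 genes. Groups came from the sample titles. limma 3.58.1 in R 4.3.3 (1 mean per group, all 12 arrays, 8 residual degrees of freedom) was fitted for 5 comparisons, CD24 low minus CD24 high in each genotype, Wnt4-deleted minus WT in each fraction, and the difference of the genotype effects, with two-sided tests, Benjamini-Hochberg adjustment within each and a threshold of 0.05. A trial of the fit on simulated arrays used independent noise and no set effect. It does not cover the shifts between the sets seen here. The 35 members, the other gene lists and the alternatives were chosen with earlier results of these data known. Values per array are given for the 12 members with the greatest absolute difference between the fractions, for 6 that did not pass, and for Kdr, Lyve1 and Erg, chosen after their values were seen. From other lists, genes with the smallest p in WT and genes against the median are named.

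Alternatives were averaging of probesets, a filter that kept genes from the 40th percentile of mean level upwards, median centring, quantile normalisation once more, a robust prior with an intensity trend, fits on the compared groups only, the set of title numbers as a fixed or random block, fits on part of the sets, a threshold of 0.01, and leaving out each array. A block within each fraction or genotype was added after seeing the data. Promoters came from RefSeq (GRCm38.p6).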

Additional observations from a re-analysis of the deposited data

How the results depend on the processing

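The count of endothelial genes higher in CD24 low cells was 19 in Wnt4-deleted and 11 in WT cells, and under each alternative that moved it by over 1.5 times the cause was not tested. Shares of all genes given beside it are for calls in either direction. In Wnt4-deleted cells the count was 6 with the compared groups only (11.2% of all genes called) and 33 with arrays 9 to 16 only (18%). It was 3 without arrays 9 to 12 (7.05%), 1 without arrays 13 to 16 (6.77%) and 5 at an adjusted p of 0.01 (9.3%). The median difference over the members was 1.83 without arrays 9 to 12 and 1.54 without arrays 13 to 16. In WT cells it was 17 with the compared groups only (17% of all genes called) and 19 with the set of title numbers as a fixed block (18.2%). It was 17 with that block within each genotype (17.7%) and 29 with arrays 9 to 16 only (17%). It was 1 without arrays 9 to 12 (6.89%), 0 without arrays 13 to 16 (6.72%) and 1 at an adjusted p of 0.01 (9.24%). The WT median difference over the members was 1.67 without arrays 9 to 12 and 1.15 without arrays 13 to 16. Leaving out 1 array in turn gave 6 to 31 calls in Wnt4-deleted cells (10.8% to 18.2% of all genes) and 1 to 21 in WT cells (11.4% to 17.7%). The other alternatives stayed within 1.5 times. With arrays 9 to 16 only, each group has 2 arrays, and where 1 array was left out the smaller group is assumed to vary like the others. Genotype comparisons called 0 members under every alternative run.

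Apln in Wnt4-deleted cells turned to -0.016 with median centring and with a further quantile normalisation, -0.070 with arrays 9 to 16 only and -0.081 without arrays 9 to 12, and ran between -0.10 and 0.25 when 1 array was left out. Prox1 in Wnt4-deleted cells turned to -0.065 with median centring, -0.057 with quantile normalisation and -0.57 without arrays 13 to 16, and ran between -0.51 and 0.42 without 1 array. Prox1 in WT cells turned to -0.096 without arrays 13 to 16, and ran between -0.17 and 0.59 without 1 array. None of these differences passed the test. The title numbers are not shared between groups, and the labels do not tie the sets to experiments, but each set holds 1 array of every group. With the set as a fixed block 27 members passed in Wnt4-deleted cells (18.8% of all genes) and 19 in WT cells (18.2%). With that block within each genotype the counts were 24 (18.5%) and 17 (17.7%).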
